A study of Mus musculus with 14 samples.

Results

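The methylated DNA of 4 induced pluripotent stem (iPS) cell clones that lack Aid was compared with that of 3 embryonic stem (ES) cell lines, 7 of the 14 mouse samples of the series. The members were chosen by their labels. The Aid-/- iPS clones were 979F1, 979F3, 981E1 and 981E4, and the ES lines were RF8, MG1.19 and B6 ES. The other 7 samples, from 4 iPS clones with Aid (Aid+/+) and 3 Aid+/+ cultures of embryonic fibroblasts (MEFs), were used only to see where else a region carried a peak. By their labels these Aid+/+ clones also had the Nanog-GFP reporter and were at passage 6 on gelatin, and the MEFs were at passage 3.

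All 4 Aid-/- clones were male, at passage 6, with Aid disrupted and a Nanog-GFP reporter, on a mixed background of C57BL6, DBA and 129S4. They were made from MEFs with retroviruses for the factors Oct3/4, Klf4 and Sox2, with c-Myc added in part of the experiments, and were moved to gelatin after culture on feeder cells. Which of them received c-Myc is not given in the sources used here. RF8 was a male line of strain 129SV at passage 19, MG1.19 a male line of strain 129Ola, and B6 ES a line of strain C57BL6 with no sex or passage in the labels. The labels give no Aid genotype for the ES lines. Both groups were grown on gelatin with LIF, and puromycin was added for the iPS clones. Each clone or line gave 1 library, and the 3 ES lines came from 3 strains. Aid genotype, reprogramming and strain therefore cannot be told apart between the groups, and p-values measure the spread between these lines.

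Aid is a cytidine deaminase that diversifies antibody genes in B cells, and it has been proposed to take part in the removal of DNA methylation. Methylated cytosine in mammals lies mostly in CpG dinucleotides, where it accompanies silent promoters, imprinted alleles and repeats. iPS cells are somatic cells returned to a pluripotent state by introduced transcription factors, and ES cells, taken from the early embryo, are the usual standard against which they are held. In MBD-seq, sheared DNA is bound to the methyl-CpG binding domain of a protein (MBD) and the bound part sequenced, so that a pile of tags, called as a peak, marks methylated DNA with several CpGs. A peak does not tell a region methylated in part of the cells from one methylated less densely in all of them, and where no peak was called methylation may still be present below the caller's cutoff.

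The Aid-/- libraries held 27.6 ± 2.64 M tags (M, mega, as in Mb) (SD, n = 4) and the ES libraries 25.6 ± 4.93 M (SD, n = 3). After removal of duplicates 9.67 ± 2.11 M and 13.5 ± 2.88 M remained, with the fewest, 6.65 M or 21.3% of its tags, in 981E1. 981E1 and the 3 ES lines shared 1 processing run (run C, by the peak caller's version and the run name in the file headers), whereas 979F1, 979F3 and 981E4 were in run A. MG1.19 and B6 ES stood apart before any comparison. MG1.19 had the fewest peaks of the 7 samples and B6 ES the most, and results that rest on either are given with and without it. No pair of the 7 samples had more than 0.00116% identical peaks, and each was counted on its own. The clones 979F1 and 979F3, and likewise 981E1 and 981E4, share the leading number of their names, and the study numbers its reprogramming experiments in the same way. Clones of a pair may thus come from 1 experiment, while the tests treat all 4 as independent, so their p-values may be too small.

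The number of peaks did not separate the Aid-/- clones from the ES lines. On the 19 autosomes, 979F1, 979F3, 981E1 and 981E4 had 87338, 87965, 86338 and 65859 peaks, while RF8, MG1.19 and B6 ES had 56045, 31650 and 101951. By number the ES lines thus lay on both sides of the 4 clones. The means were 81875 ± 10698 (SD, n = 4) and 63215 ± 35695 (SD, n = 3), a difference smaller than the SD among ES lines (exact two-sided permutation test over 35 assignments, p = 0.429; adjusted over 8 measures by the Benjamini-Hochberg (BH) method, 0.486). Per M filtered tags the clones had 8190, 8894, 12975 and 5748 peaks and RF8, MG1.19 and B6 ES 5482, 2131 and 6578 (exact permutation p = 0.0857). On that scale no ES line lay above the clones, and B6 ES alone lay among them. Peaks covered 55.1, 53.6, 61.2 and 49.3 Mb in the clones and 38.6, 21.0 and 73.1 Mb in RF8, MG1.19 and B6 ES (exact permutation p = 0.486). Without MG1.19 the ES mean of the covered length lay above that of the clones, by 1.02 Mb.

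Enrichment was on average lower in the ES lines, but the groups overlapped. The share of filtered tags that fell in peaks was 53.2, 50.3, 58.0 and 46.3% in the Aid-/- clones and 30.7, 15.4 and 52.2% in RF8, MG1.19 and B6 ES (exact permutation p = 0.0857, BH-adjusted 0.286). The median fold enrichment over the local background was 16.4, 16.6, 16.1 and 14.8 in the clones and 14.1, 12.4 and 15.1 in the ES lines (exact permutation p = 0.0857, BH-adjusted 0.286). In both measures B6 ES lay among the clones and RF8 and MG1.19 lay below them. The smallest p these group sizes allow is 0.0286.

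**Figure D1:**
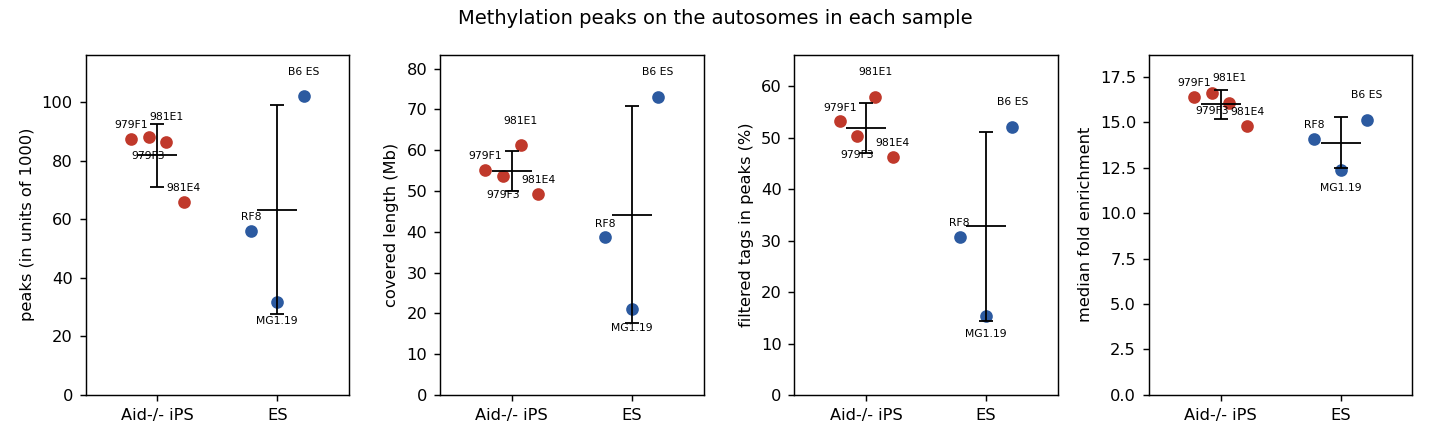
Peaks (in units of 1000), covered length (Mb), filtered tags in peaks (%) and median fold enrichment on the autosomes, 1 point per sample, with the mean and SD of the 4 Aid-/- iPS clones (red) and the 3 ES lines (blue). The ES lines spread from 31650 to 101951 peaks, on both sides of the clones' 65859 to 87965.

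The kind of sequence under the peaks was also alike in its range. Median peak length was 546 to 672 bp in the clones and 597 to 658 bp in the ES lines (exact permutation p = 0.486), and median GC content 49.5 to 50.3% and 49.2 to 49.7% (exact permutation p = 0.114, BH-adjusted 0.286). Peaks centred at a promoter, taken as 1000 bp before to 500 bp after the start of a protein-coding transcript, made up 3.23, 3.14, 2.47 and 4.29% of peaks in the clones and 2.26, 1.85 and 3.06% in RF8, MG1.19 and B6 ES (exact permutation p = 0.143). Within run C, where 981E1 had 2.47%, the ES mean differed from it by -0.0766 percentage points. Peaks between genes made up 44.2 to 45.8% in the clones and 44.1 to 53.8% in the ES lines (exact permutation p = 0.314), with the highest share in MG1.19. Without MG1.19 the difference, ES minus Aid-/-, was -0.153 percentage points.

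Whether the clones resemble each other more than they resemble ES lines was asked by pairwise overlap, the share of merged regions holding peaks of both samples. Pairs of Aid-/- clones overlapped by 68.5% ± 5.59 (SD over 6 pairs). An Aid-/- clone overlapped with RF8 by 50.3% ± 1.05, with MG1.19 by 30.5% ± 3.25 and with B6 ES by 66.0% ± 6.31 (SD over 4 pairs each). The overlap with B6 ES, 57.0 to 70.6%, lay within that among the clones, 61.2 to 75.8%, except for the pair with 981E4. ES pairs overlapped by 36.8% ± 10.6 (SD over 3 pairs), on average less than an Aid-/- clone with an ES line, 48.9% ± 15.6 (SD over 12 pairs). Pairs within a group overlapped by 9.03 percentage points more than pairs across groups (exact one-sided permutation p = 0.0857). With the same number of peaks kept in each sample the difference was 8.74 points, and the exact permutation p became 0.0286. With overlap taken over the smaller peak set of a pair it was 0.961 points (exact permutation p = 0.314). On that scale the clones shared 87.5% with each other, 82.7% with RF8, 84.2% with MG1.19 and 89.9% with B6 ES. In run C, 981E1 overlapped with RF8, MG1.19 and B6 ES by 49.2, 28.8 and 66.1%. The clones of run A, which shared no run with the ES lines, did so by 49.9 to 51.7, 28.8 to 35.3 and 57.0 to 70.6%.

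Regions were then compared by the presence and absence of peaks. A stretch common to peaks of all 4 clones was called a differentially methylated region (DMR) of the Aid-/- iPS cells when no ES peak touched it, and a commonly methylated region (CMR) when peaks of all 3 ES lines did. ES DMRs were defined the other way round. The 4 clones shared 56269 stretches, of which 535 were DMRs (0.951%) and 24199 were CMRs (43.0%). Of 25781 stretches common to the ES lines, 59 were DMRs (0.229%). The other 31535 Aid-/- stretches had peaks of only some ES lines.

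Nearly all of what was missing in ES cells was missing in the 129 lines. B6 ES had a peak at 98.2% of the Aid-/- stretches, RF8 at 71.5% and MG1.19 at 45.6%. B6 ES was the only ES line with a peak at 14179 stretches, whereas RF8 alone had one at 269 and MG1.19 alone at 45. RF8 and B6 ES shared 15646 stretches without MG1.19. The Aid+/+ iPS clones had peaks at 94.6 to 98.2% of the same stretches and the MEFs at 46.0 to 73.1%, so that B6 ES lay at the top of the range of Aid+/+ iPS clones and RF8 and MG1.19 in or just below the range of MEFs. In the other direction the ES stretches were seldom missing, with peaks at 98.6, 98.4, 98.0 and 96.3% of them in 979F1, 979F3, 981E1 and 981E4. Strain, depth in peaks and line cannot be told apart here, with 1 C57BL6 line and 2 lines of 129 strains.

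The count of DMRs depended on which libraries had to meet the rule. The rule needs a peak in every carrying sample and none in the other group. Leaving out a sample drops a condition, so a rise follows from the rule, and only its size differs between samples. Without B6 ES there were 14714 Aid-/- DMRs and 354 ES DMRs. Without MG1.19 there were 580 Aid-/- DMRs, 709 ES DMRs and 39845 CMRs, and without RF8 804 and 140 DMRs. Leaving out 979F1, 979F3, 981E1 or 981E4 gave 729, 764, 947 or 1582 Aid-/- DMRs and 94, 85, 102 or 100 ES DMRs. Taken alone against the ES lines, 979F1 had 6899 peaks with no ES peak, 979F3 6920, 981E1 9411 and 981E4 4004, which were 7.90, 7.87, 10.9 and 6.08% of their peaks. 981E1, which shared run C with the ES lines, had the most.

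Presence in the ES lines followed the strength of the stretch in the Aid-/- clones. The stretches were put into 4 classes of like size by the lowest MACS score among the 4 clones (the −log10 of the peak's p-value, multiplied by 10). In the weakest class, 45.9% of stretches had a peak in RF8, 14.8% in MG1.19 and 94.3% in B6 ES. In the strongest class the shares were 92.6, 80.6 and 99.9%. The weakest class held 472 of the 535 Aid-/- DMRs and the strongest held 2. A median of 20 tags lay under the Aid-/- DMRs and 90.5 under the CMRs, and 78.5% of the Aid-/- DMRs had a median under 30 tags, near the cutoff of the caller. CpG density had medians of 3.33 CpGs per 100 bp in Aid-/- DMRs and 3.60 in CMRs. In 4 classes of like size by CpG density, DMRs made up 1.14, 1.02, 1.18 and 0.462% of the stretches from the fewest to the most CpGs, and MG1.19 had a peak at 39.7, 40.4, 48.6 and 53.6% of them. RF8 and MG1.19 had a peak at 63.0 and 31.3% of the stretches centred at promoters and at 71.9 and 53.7% of those between genes, while B6 ES had one at 98.3% of each.

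**Figure D2:**
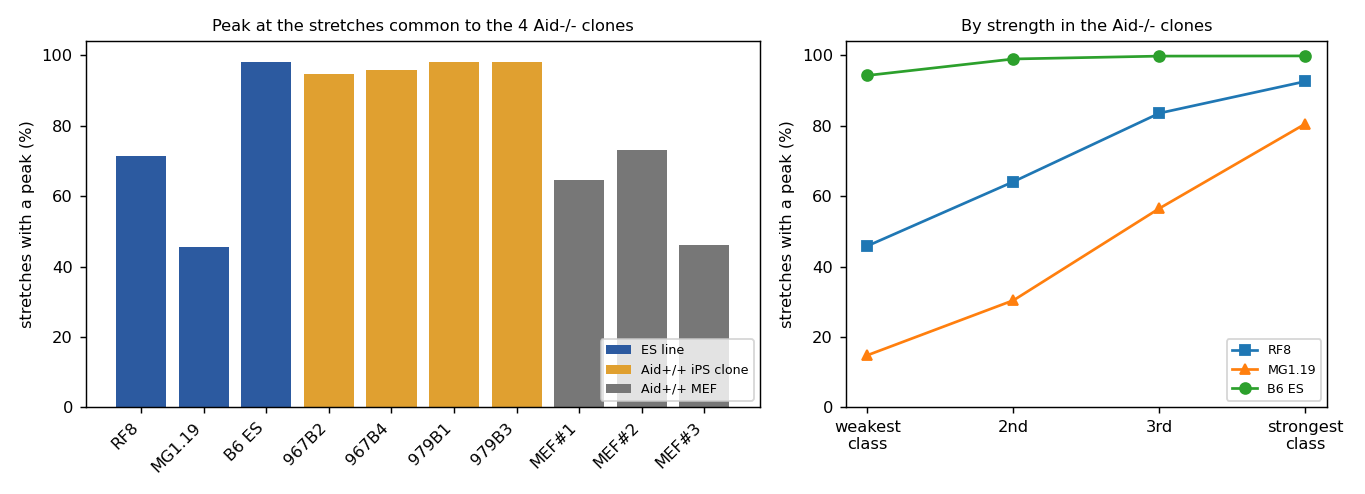
Left, share (%) of the 56269 stretches common to the 4 Aid-/- clones that held a peak in each ES line (blue), Aid+/+ iPS clone (orange) and MEF culture (grey); right, the same share in the ES lines by class of the lowest score among the 4 Aid-/- clones. B6 ES stayed at 94.3 to 99.9% in every class, while RF8 and MG1.19 rose from 45.9 and 14.8% to 92.6 and 80.6%.

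Most Aid-/- DMRs were carried by Aid+/+ iPS clones as well, but less often than the other Aid-/- stretches. Of the 535 Aid-/- DMRs, 252 (47.1%) had a peak in all 4 Aid+/+ clones, 206 in 3, and 3 in none. Of the Aid-/- stretches with a peak in 1 or 2 ES lines, 78.5 and 89.9% had one in all 4 Aid+/+ clones. In MEFs 440 had no peak and 12 had one in all 3 cultures. Of the 24199 CMRs, 98.1% had a peak in all 4 Aid+/+ clones and 67.6% in all 3 MEFs. The 59 ES DMRs were spread differently, with 17 in no Aid+/+ clone and 2 in all 4, and with 28 in no MEF culture. The Aid+/+ clones were not used to define either class.

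**Figure D3:**
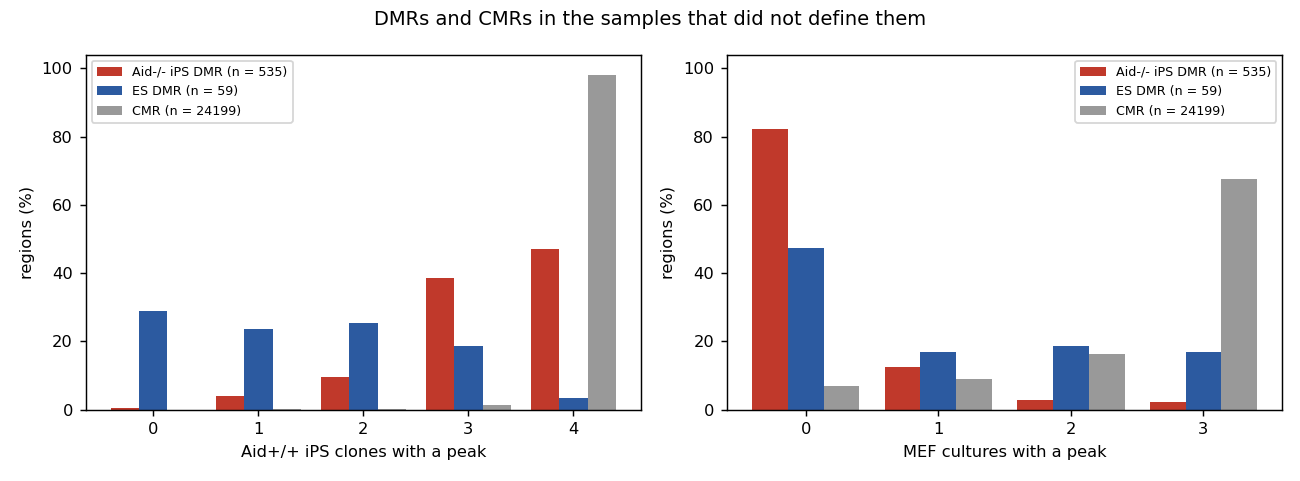
Share (%) of the 535 Aid-/- iPS DMRs (red), 59 ES DMRs (blue) and 24199 CMRs (grey) with a peak in 0 to 4 Aid+/+ iPS clones (left) and 0 to 3 MEF cultures (right). Of the Aid-/- DMRs 47.1% lay in all 4 Aid+/+ clones and 82.2% in no MEF culture.

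Ranked by the lowest MACS score among the clones, with regions that touch any ES peak left out, 3 of the 4 strongest Aid-/- DMRs lay in genes that had been introduced to make the cells. They were at Sox2, Pou5f1 and Myc. The remaining one lay on chromosome 6 between genes, 65.4 kb from Ezh2, the gene of the histone H3 lysine methyltransferase of Polycomb. The 200 bp at the centre of 3 of them are printed because they are among the strongest regions that all clones had and all ES lines lacked. The sequence is the forward strand of NCBI build 37 (mm9), 5′ to 3′, with each CpG in capitals.
Sox2, coding exon, chr3:34549769-34549968: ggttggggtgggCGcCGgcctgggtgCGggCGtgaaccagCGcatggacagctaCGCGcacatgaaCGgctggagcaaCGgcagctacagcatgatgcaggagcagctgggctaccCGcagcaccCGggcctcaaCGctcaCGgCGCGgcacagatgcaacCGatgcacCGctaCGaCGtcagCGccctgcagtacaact
Chromosome 6, between genes, chr6:47611071-47611270: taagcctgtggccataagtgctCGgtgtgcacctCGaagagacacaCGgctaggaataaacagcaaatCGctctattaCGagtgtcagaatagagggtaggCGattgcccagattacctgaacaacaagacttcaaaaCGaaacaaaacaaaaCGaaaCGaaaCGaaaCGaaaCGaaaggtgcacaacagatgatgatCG
Pou5f1, first exon, chr17:35643096-35643295: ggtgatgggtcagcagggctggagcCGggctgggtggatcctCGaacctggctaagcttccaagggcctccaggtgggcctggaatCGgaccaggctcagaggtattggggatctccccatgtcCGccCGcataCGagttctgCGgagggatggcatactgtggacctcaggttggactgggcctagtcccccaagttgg

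Sox2, a transcription factor of pluripotent and neural stem cells, had a peak over its single exon in each clone, common from chr3:34549237-34550499. It held 402, 275, 61 and 343 tags in 979F1, 979F3, 981E1 and 981E4, at fold enrichments of 14.2, 17.4, 13.9 and 11.9. None of the ES lines or MEFs had a peak there, and all 4 Aid+/+ clones did, with 93 to 1151 tags. 981E1, with the fewest filtered tags, was the lowest of the Aid-/- clones.

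Pou5f1, which encodes Oct3/4, the POU-domain factor that defines the pluripotent state, carried a peak around its start site and first exon (common from chr17:35642962-35643429). The tags numbered 39, 75, 96 and 53 in the 4 Aid-/- clones, and fold enrichment reached 26.6 ± 3.89 (SD, n = 4). The clone 979F3 had a further peak of 12 tags 3297 to 3557 bp from the start. No ES line and no MEF culture had a peak in the gene.

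Myc, the growth-promoting transcription factor, showed both kinds of peak. Its upstream peak (common from chr15:61818988-61819860, within the promoter window of a transcript that starts inside the gene) held 43, 268, 213 and 132 tags in the Aid-/- clones and was in no ES line and no MEF. Its downstream peak, 3.67 to 4.75 kb from the start, held 36, 131, 117 and 91 tags in the clones, 22 in RF8 and 87 in B6 ES, and was also in the 3 MEFs with 130 to 164 tags. MG1.19 had neither. Only the upstream peak was thus a DMR.

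Klf4, the zinc finger factor of the same set, had 2 peaks in each Aid-/- clone. Those nearer the start, over an exon, held 14, 310, 23 and 107 tags in 979F1, 979F3, 981E1 and 981E4, with no ES counterpart, and their common stretch chr4:55543033-55543547 was a DMR. The ones at the far end, over the last exon, held 19, 56, 10 and 24 tags, and B6 ES had a peak of 24 tags at the same place. All 25 peaks of the 4 Aid-/- clones at the 4 genes overlapped exons. The tags of the introduced retroviral copies map to the same exons as those of the endogenous genes, so their sources cannot be told apart. The clones differed by up to 22-fold in tags at 1 site, the Klf4 peak nearer the start. At the Pou5f1 start site they held 39 to 96 tags, and their libraries held 6.65 to 11.5 M filtered tags. The cause of the spread was not tested.

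**Figure D4:**
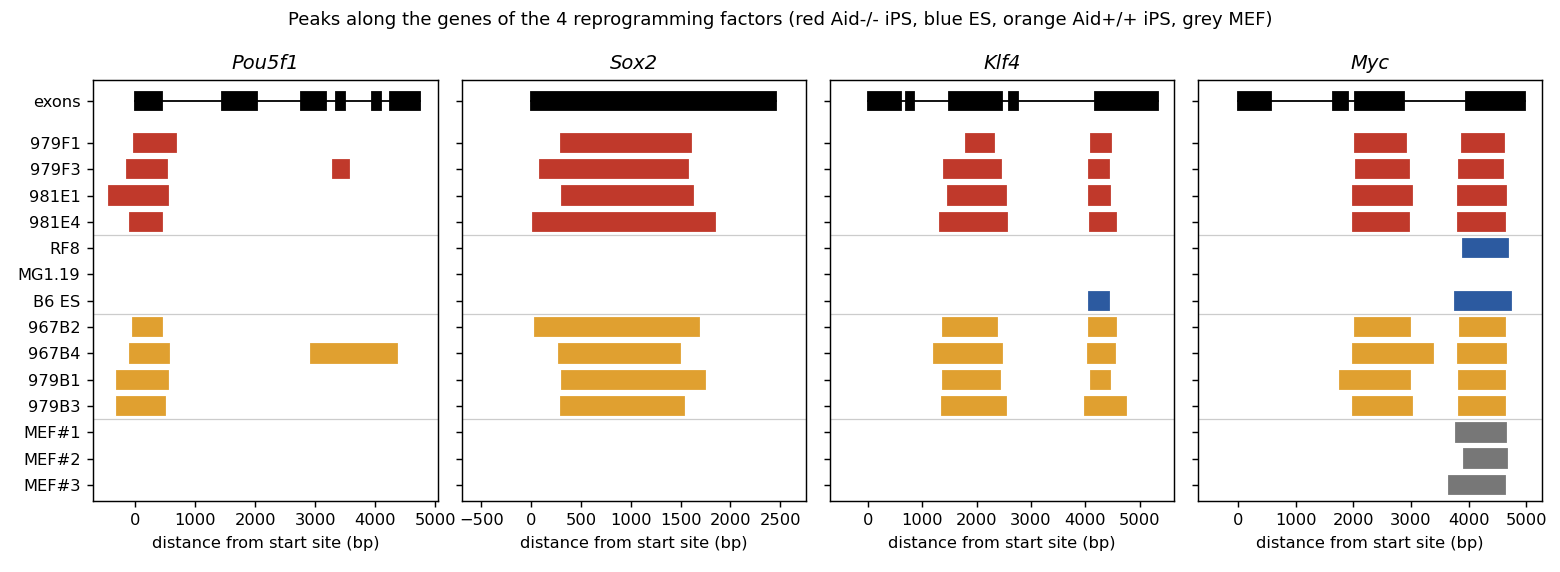
Peaks along Pou5f1, Sox2, Klf4 and Myc in each of the 14 samples, by distance from the start site (bp), with the exons of the gene model in black on top. The peaks of the Aid-/- clones (red) and Aid+/+ clones (orange) lie over exons, and the ES lines (blue) have peaks only at the far end of Klf4 (B6 ES) and Myc (RF8 and B6 ES).

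The other strong Aid-/- DMRs lay outside promoters. On chromosome 6 (chr6:47610788-47611552) the tags numbered 377, 358, 229 and 305, the highest median of the 10 named Aid-/- DMRs, and 4 of 4 Aid+/+ clones and 2 of 3 MEFs had the peak too. On chromosome 7 (chr7:67052749-67053359), 74.0 kb from Snrpn, an imprinted gene, the clones had 33, 33, 45 and 33 tags. On chromosome 9 (chr9:86836118-86836588), 60.6 kb from Snap91, a clathrin adaptor of synapses, they had 32, 32, 23 and 44. Both were also in all 4 Aid+/+ clones. DMRs on chromosome 1 (chr1:155241286-155242098) and chromosome 5 (chr5:16685274-16685662) lay between genes with medians of 35 and 23 tags. Inside genes, an intron of Ttc6 (chr12:58789045-58789347) held 31, 24, 27 and 19 tags and an exon of Glis1 (chr4:107287509-107287789), a Krüppel-like zinc finger factor, 20, 28, 25 and 19. Each of these 10 DMRs was in 4 of 4 Aid+/+ clones.

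The ES DMRs had a different place in the series. The strongest lay in an intron of Bfsp2, a lens filament protein (chr9:103374136-103374499), with 53, 67 and 43 tags in RF8, MG1.19 and B6 ES and a fold enrichment of 25.1 ± 7.90 (SD, n = 3). It overlaps an exon of the transcript Gm16252. No peak lay there in any of the 8 iPS clones or 3 MEFs. Its centre is printed, in the same form as above, because it is the strongest region that all 3 ES lines shared and no other sample had.
Bfsp2, intron, chr9:103374218-103374417: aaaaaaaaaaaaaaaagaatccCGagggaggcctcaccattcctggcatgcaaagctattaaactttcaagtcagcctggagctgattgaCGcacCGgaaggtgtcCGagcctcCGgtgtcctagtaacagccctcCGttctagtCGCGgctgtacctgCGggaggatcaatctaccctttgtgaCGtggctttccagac

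Another 4 of the 10 strongest ES DMRs were in no Aid+/+ clone. They lay at Sh3tc2 (31, 34 and 46 tags in RF8, MG1.19 and B6 ES), which is needed by myelinating Schwann cells, at Lipg, the endothelial lipase (35, 21 and 17 tags), over an exon of Gm14249 (57, 45 and 15 tags), and 8.56 kb from Snrpe, a core spliceosome protein (31, 34 and 62 tags). The last holds no CpG in its 820 bp. The others were also in Aid+/+ clones, though in none of the Aid-/- clones. These included a region 258 kb from Pcdh17, a protocadherin (46, 31 and 24 tags, 3 Aid+/+ clones). Another was the promoter of Wfdc5, a gene of the WAP protease inhibitor family (132, 109 and 51 tags, 3 Aid+/+ clones). A further region lay 124 kb from Magi2, a synaptic scaffold (12, 26 and 35 tags, 1 Aid+/+ clone). The remaining pair of stretches lay 33.2 and 33.7 kb from Zfp954 (3 Aid+/+ clones and 3 MEFs). They held 26 and 45 tags in RF8, but the same 75 in MG1.19 and 293 in B6 ES. In MG1.19 and B6 ES the pair thus shared its peaks. When the carrying samples were asked for the stricter peak p-value of 1e-10, 51 of the 535 Aid-/- DMRs (9.53%) and 14 of the 59 ES DMRs (23.7%) were left. Of the 10 named ES DMRs, 5 lost a carrying sample at that p-value, and of the 10 named Aid-/- DMRs 0 did.

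Promoters with peaks in all clones and no ES line were few. Among 21410 protein-coding genes, 18 had a promoter peak in every Aid-/- clone and no ES line (0.0841%), 2 in every ES line and no Aid-/- clone (0.00934%), 518 in all 7 samples and 15789 in none. The 18 included the introduced Sox2, Pou5f1 and Myc, whose peaks lay over exons, where tags of introduced retroviral copies would map too. Klf4 had no promoter peak in any sample. Among the rest were Nppa, the atrial natriuretic peptide (53, 31, 21 and 52 tags), Krt8, a keratin of simple epithelia, Zar1, an oocyte factor, Setd1b, a histone methyltransferase, Slc6a2, the noradrenaline transporter, and Oxgr1, a receptor for oxoglutarate. Lrrc4, a synaptic adhesion protein, and Nt5dc2 had the peak in 2 Aid+/+ clones and Gm8603 in 3. Nppa and Slc6a2 also had the peak in 4 Aid+/+ clones, and Krt8, Zar1, Setd1b and Oxgr1 in 3. Hist3h2ba, a histone H2B gene, was the only one with it in no Aid+/+ clone. In the MEFs 14 of the 18 had no promoter peak. Krt8 and Lrrc4 had it in all 3 MEF cultures, Zar1 in 2 and D430041D05Rik in 1. The 2 of the ES lines were Wfdc5 and Guca1b, an activator of photoreceptor guanylate cyclase (38, 16 and 50 tags). Without B6 ES the 18 became 592, and without 981E1 and 981E4 they became 166 and 35. With a sample left out this rule, too, is easier to meet.

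Promoter DMRs ranked next after the introduced factors were weaker. At Rpl7a-ps10 and Gm4884 they held 17 to 36 and 15 to 23 tags in the clones, at Gm4222 14 to 29 and at Otop3, a proton channel, 14 to 29. D430041D05Rik had 24 to 28 tags and 1600014C10Rik 14 to 61, the lowest again in 981E1. By definition none of these stretches had an ES peak, and each was in 3 or 4 Aid+/+ clones. Otop3 is not among the promoters above without an ES peak, as an ES line had one elsewhere in a promoter window of that gene.

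Germline genes, which somatic and pluripotent cells silence by promoter methylation, had promoter peaks at 23, 26, 20 and 25 of 30 in the 4 clones and at 16, 3 and 28 in RF8, MG1.19 and B6 ES. Dazl, a germ cell RNA-binding protein, Fkbp6 and Sohlh1, both of meiosis and germ cell development, had one in all 7 samples. None of the 30 was Aid-/- only, and B6 ES had the most. The whole set of protein-coding promoters moved the same way, with 3301, 3208, 2625 and 3394 peaks in the clones and 1621, 756 and 3743 in RF8, MG1.19 and B6 ES.

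Imprinted genes are methylated on 1 parental allele from the germline on. Of 22 maternally methylated genes with a promoter, 16, 15, 15 and 17 had a peak in the clones and 15, 9 and 16 in RF8, MG1.19 and B6 ES. All 7 samples had one at Gnas, Inpp5f, Mest, Nap1l5, Nnat, Peg3, Plagl1, Snrpn and Zrsr1, 9 of 22 (40.9%) beside 2.42% of all genes. Paternally methylated genes gave 4, 4, 3 and 5 of 6 in the clones and 2, 1 and 3 in the ES lines. H19, Igf2, Rasgrf1, Dlk1, Meg3, Rtl1, Rian and Mirg carried peaks in or near the gene in each of the 7 samples. Dio3 and Zdbf2 carried them in the 4 clones and B6 ES but not in RF8 or MG1.19.

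Early lineage regulators, mostly transcription factors of germ layers, had promoter peaks at more genes in 3 of the clones than in any ES line. They were at 15, 12, 4 and 17 of 27 genes in 979F1, 979F3, 981E1 and 981E4, and at 3, 0 and 6 in RF8, MG1.19 and B6 ES. The Hox clusters gave 10, 5, 2 and 14 of 40 and 3, 0 and 6. The 3 clones of run A were at or above all ES lines except for 979F3 at the Hox clusters, and 981E1, the clone in the run of the ES lines, lay among them. The pattern was not particular to the Aid-/- clones. The Aid+/+ clone 967B2, also of run A, had peaks at 12 lineage and 13 Hox genes. The Aid+/+ clones 967B4, 979B1 and 979B3, of another run, had them at 2, 4 and 3 and at 1, 2 and 1. The run's part was not tested. Pluripotency genes had peaks at 9, 7, 4 and 9 of 26 promoters in the clones and 2, 0 and 6 in the ES lines. Without the introduced Pou5f1 and Sox2 the clones had 7, 5, 2 and 7. Fibroblast genes had peaks at 2, 2, 3 and 2 of 28 promoters and 0, 0 and 5. The DNA methylation and deaminase genes had 7, 7, 3 and 4 of 24 and 4, 2 and 9. Beside these lists, all 21410 protein-coding promoters gave 3301, 3208, 2625 and 3394 in the clones and 1621, 756 and 3743 in the ES lines.

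DMRs within 1000 bp of a gene were found at 269 of 21418 protein-coding genes for the Aid-/- clones (1.26%) and at 28 for the ES lines (0.131%). Among 168 listed genes matched, 5 had an Aid-/- DMR and 0 an ES DMR. Besides the 4 introduced factors this was Tdg, the glycosylase that removes thymine from mismatches left by deaminated methylcytosine, with a stretch over an exon (chr10:82111200-82111547) of 52, 38, 26 and 33 tags. All 4 Aid+/+ clones had that peak, and RF8, MG1.19 and B6 ES had 4, 1 and 3 peaks elsewhere in the gene.

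Nanog, the homeodomain factor whose GFP reporter was used to pick the clones, had no peak in the clones or the ES lines and had peaks in 2 of 3 MEFs. Khdc3, an oocyte gene also known as Ecat1, had peaks of 11 to 24 tags in the 4 clones and 1 of 117 tags in B6 ES. RF8 and MG1.19 had none. Of the Aid+/+ samples, 1 of 4 iPS clones and 1 of 3 MEFs had a Khdc3 peak, each of 16 tags. The fewest tags in any peak of 979F1, 979F3, 981E1 and 981E4 were 11, 11, 10 and 13, so these Khdc3 peaks were weak.

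Tag counts could be tested where every sample had a peak. Of 22485 such regions, edgeR's quasi-likelihood test with BH adjustment found 1 with more tags in ES cells (0.00445%) and 2 with fewer (0.00889%). At an unadjusted p under 0.05 there were 942 regions higher (4.19%) and 861 lower (3.83%) in ES cells. DESeq2 called 165 and 162. With the processing run as a term, with at least 20 tags in each sample, or without any 1 sample other than B6 ES, edgeR called 0 in both directions, and without B6 ES it called 872 higher and 1864 lower.

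The region higher in ES cells lay on chromosome 6 (chr6:124588790-124589800), 1.74 kb from Gm5077. Its tags per M, scaled to each library's tags in the tested regions by the TMM method of edgeR, were 10.1, 6.08, 8.07 and 9.06 in 979F1, 979F3, 981E1 and 981E4 and 63.5, 105 and 26.7 in RF8, MG1.19 and B6 ES. All ES lines lay above all clones, by a log2 difference of 2.94 ± 0.41 (SE; edgeR BH-adjusted p = 0.0434). The raw tags of the clones were 35, 18, 18 and 31, and those of the 4 Aid+/+ clones 196, 75, 124 and 83. The 4 regions next in order in this direction did not pass (edgeR BH-adjusted p = 0.135 to 0.253). They lay 25.9 kb from Uck2, a pyrimidine nucleoside kinase (log2 difference 2.27), within Tmem39b (1.69), within Acnat1, an acyltransferase of fatty acid conjugation (2.03), and 12.5 kb from the odorant receptor gene Olfr339 (1.54).

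The 2 regions lower in ES cells looked alike. On chromosome 3 (chr3:6478010-6479114), 136 kb from 1700008P02Rik, the normalised tags per M were 52.4, 55.7, 84.7 and 65.8 in the clones and 8.32, 7.89 and 17.5 in RF8, MG1.19 and B6 ES, a log2 difference of -2.47 ± 0.34 (SE; edgeR BH-adjusted p = 0.0434). On chromosome 1 (chr1:32434802-32435994), within Khdrbs2, the gene of an RNA-binding splicing regulator, they were 62.8, 68.6, 97.7 and 68.7 and 22.8, 15.3 and 11.8, a log2 difference of -2.18 ± 0.30 (edgeR BH-adjusted p = 0.0434). In both, each ES line lay below each clone. The centres of the 3 called regions are printed as above.
Higher in ES cells, chr6:124589196-124589395: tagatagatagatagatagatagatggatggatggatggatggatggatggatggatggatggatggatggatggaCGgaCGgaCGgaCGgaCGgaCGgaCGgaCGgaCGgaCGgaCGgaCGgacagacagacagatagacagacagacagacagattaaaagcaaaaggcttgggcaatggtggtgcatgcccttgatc
Lower in ES cells, chr3:6478463-6478662: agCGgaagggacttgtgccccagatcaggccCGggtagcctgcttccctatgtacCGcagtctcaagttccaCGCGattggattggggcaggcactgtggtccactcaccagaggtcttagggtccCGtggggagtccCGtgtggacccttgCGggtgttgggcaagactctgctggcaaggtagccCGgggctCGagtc
Lower in ES cells, chr1:32435299-32435498: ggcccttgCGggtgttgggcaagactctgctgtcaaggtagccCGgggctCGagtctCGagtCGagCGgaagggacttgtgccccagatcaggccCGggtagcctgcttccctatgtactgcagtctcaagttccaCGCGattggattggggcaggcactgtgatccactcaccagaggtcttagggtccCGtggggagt

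A shared sequence was looked for because both lower regions held the same letters. Among the 20 regions lower in ES cells with the smallest p, 15 held, on either strand, the 20-base run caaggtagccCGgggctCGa (CpGs in capitals), which was chosen after these values were seen as the CpG-richest of the 20-base runs shared by the most regions. It occurs 6011 times on the autosomes of NCBI build 37. All 5 of the named regions lower in ES cells held it and none of the 5 higher. As it was chosen from these regions, no test was made of it.

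Most regions with the run had fewer tags in ES cells, but few passed the test. Of the 22485 regions tested, 232 held it (1.03%), and 226 of these had fewer tags in ES cells, with a median log2 difference of -1.50 beside 0.01 over all regions. Only the 2 regions described above passed the adjusted threshold. With the 20 regions from which the run was chosen set aside, 217 held it, of which 211 had fewer tags in ES cells and 6 did not, with a median log2 difference of -1.47. These come from the same 7 samples and are a description. The mean normalised tags per M at the 232 regions were 69.9, 68.5, 91.8 and 99.8 in 979F1, 979F3, 981E1 and 981E4, and 17.1, 18.4 and 52.4 in RF8, MG1.19 and B6 ES. B6 ES lay nearer to the clones than the 129 lines did. Within run C the difference was as large, with 91.8 in 981E1.

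Presence of peaks was also lower in the 129 lines. Among the 2230 Aid-/- stretches that held the run, 226 were CMRs and so had peaks in all 7 samples, as the regions of the tag test did. Of the 2230, 34.5% had a peak in RF8 and 13.3% in MG1.19, beside 73.1 and 46.9% of the stretches without it. In B6 ES the shares were 97.6 and 98.3%. The Aid+/+ clones had peaks at 98.4 to 99.9% of the stretches with the run and the MEFs at 46.7 to 85.0%. Of Aid-/- DMRs 9.72% held it, of CMRs 0.934%, and of all Aid-/- stretches 3.96%. The DMR on chromosome 9 near Snap91 was one of these. Peaks with the run numbered 2339, 2322, 2416 and 2335 in the clones and 773, 295 and 2278 in RF8, MG1.19 and B6 ES. Copies of a repeat share reads, so the tags of a single copy are uncertain. Build 37 was made from a C57BL/6 mouse, and whether tags of 129 strains map to these copies less often was not tested.

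**Figure D5:**
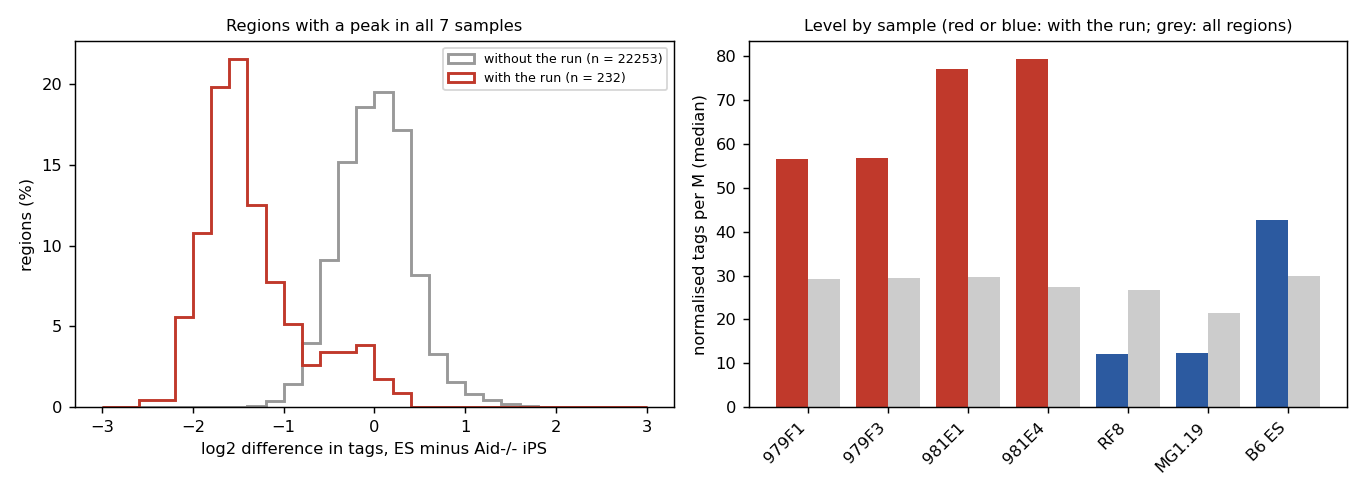
Left, distribution (% of regions) of the log2 difference in tags, ES minus Aid-/- iPS, for the 232 regions with the 20-base run (red) and the other regions with a peak in all 7 samples (grey); right, median normalised tags per M by sample for regions with the run (red, Aid-/- iPS; blue, ES) and for all regions (grey). The regions with the run have a median of -1.50, and RF8 and MG1.19 are lowest on the right.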

How the data were processed

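MBD-seq peak lists of 4 Aid-/- iPS clones and 3 ES lines were compared. Per the labels and the methods, the authors sheared DNA, enriched it with a methyl-CpG binding kit and mapped tags of 75 bp to NCBI build 37 (mm9) with BWA 0.5.9rc1 after CASAVA 1.8.1. Peaks were called in each sample alone by MACS, with no control, at p of 1.00e-05 and at most 2 tags per position; headers give version 1.4.0rc2 for run C and 1.4.1 for run A. The labels name another sequencer than the methods. The deposited columns hold the tag count of a peak, its p-value as −log10 multiplied by 10 (the MACS score), and its fold enrichment, a ratio over a local background. A count exists only where a peak was called. In RF8, 1 peak with a start below 1 was dropped.

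Coordinates are 1-based. Genes are those of GENCODE for build 37, and 168 of 171 listed genes matched, 2 by an older symbol. Group means were compared by exact two-sided permutation tests (35 assignments), adjusted over 8 measures by the Benjamini-Hochberg (BH) method. DMRs and CMRs need an overlap of 1 bp and have no p-value. Tag counts in merged regions with a peak in all 7 samples were tested with edgeR 4.0.16 (quasi-likelihood, TMM, BH threshold 0.05; R 4.3.3), with limma 3.58.1 and DESeq2 1.42.0 as alternatives. The code was tested on simulated data. Named DMRs are the 10 with the highest lowest score in each direction, of 100 bp or more and in merged regions free of peaks of the other group; named tag regions are the 5 of smallest p; the listed genes with a DMR, the 4 factors, Nanog and Khdc3 are named whatever their values. A further gene and a sequence are not reported here. Promoter genes of a count of 18 or fewer are all named. The members, lists and rules were chosen with earlier results of these data known.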

Additional observations from a re-analysis of the deposited data

Results flagged for a closer look

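Among the 4 Aid-/- clones, 981E4 had far fewer autosomal peaks than the others, 65859 against 86338 to 87965. Its gap to the nearest clone was 0.926 of the range of the group, above Dixon's 95% critical value for 4 samples. It was 1 of 10 measures tested, and chance passes about 1 group in 20. The clone had the most filtered tags of its group, and it was kept in all comparisons. Without it there were 1582 Aid-/- DMRs in place of 535, though leaving out any clone makes the rule easier to meet.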

How the results depend on the processing

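Of the alternatives tried for the results that answer a comparison, 122 left the result in place, 53 moved a count or value, 1 took a result past the threshold and 2 turned a direction. A tested measure or overlap counted as in place if it kept its sign and its side of the 0.05 threshold. The difference in peak number did so without MG1.19, at -2877 beside -18659.7 with all samples. With 1 sample left out, the exact permutation tests could give no p below 0.1 or, with an ES line out, 0.0667. No measure or overlap could then pass the threshold, so these alternatives bear only on direction. Without MG1.19 the difference, ES minus Aid-/-, became 1.02 Mb for covered length and -0.153 percentage points for peaks between genes. With the same number of peaks in every sample the within-group overlap exceeded the other by 8.74 points (exact permutation p = 0.0286), and over the smaller peak set by 0.961 points (p = 0.314, exact permutation test). In run C alone the differences were -0.0766 points for promoter peaks and -0.0178 points for GC content. Aid-/- DMRs numbered 51 with a peak p of 1e-10 in the carrying samples. In run C alone they numbered 9411, counted on the single clone 981E1. By the same rule for a single clone, 979F1, 979F3 and 981E4 of run A had 6899, 6920 and 4004. ES DMRs numbered 31 with a peak p of 1e-10 in all samples, 14 with it in the carrying samples and 174 with the same number of peaks. In run C, against 981E1 only, they numbered 511, beside 367, 423 and 942 against 979F1, 979F3 and 981E4. CMRs numbered 14239 with the same number of peaks. With 1 sample left out, Aid-/- DMRs ranged from 580 to 14714, ES DMRs from 85 to 709, CMRs from 24198 to 39845, Aid-/- promoters from 18 to 592, regions higher in ES from 0 to 872 and lower from 0 to 1864. The highest counts came without B6 ES, except for ES DMRs and CMRs, where they came without MG1.19. Counts of DMRs and promoters could hardly fall, as leaving out a sample drops a condition of their rule. Peak number differed by -38027.5 to -2877, covered length by -25.03 to 1.02 Mb, fold enrichment by -2.74 to -1.36, tag share by -28.9 to -10.5 points, peak length by 9 to 51 bp, promoter share by -1.23 to -0.554, share between genes by -0.153 to 4.71, GC content by -0.706 to -0.364 and overlap by 2.74 to 24.2 points.

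Tag tests called 0 regions in each direction with the header's filtered tags as library size, with at least 20 tags per sample, with run as a term, with limma on the fold enrichment and with all chromosomes. They called 2 higher and 7 lower with peak length as an offset, 165 and 162 with DESeq2, and 2 and 4 with the Aid+/+ clones in the fit. The header library size moved the median log2 difference of all regions from 0.01 to -0.59. The 10 named tag regions kept their direction in 154 of 154 alternative fits that included them. They were chosen by their p in these same samples, which the fits reuse, so the kept direction is no independent support. The causes were not tested. No paired analysis was possible because replicate numbers only name the samples. Weak stretches, with few tags, lie near the caller's cutoff, and there absence of a peak was not distinguishable from shallow enrichment.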
